A study of Mus musculus with 4 samples.

Results

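The 40 genes described here encode or control the ribosome assembly machinery of the nucleolus, and they were followed through sorted innate lymphoid progenitors of mouse bone marrow. They are a list of names of known ribosome biogenesis factors, with no threshold on measured values, drawn up with earlier results of these data known. All 40 were listed in both count tables, which held 24641 genes in experiment 1 and 24838 in experiment 2. By role they fell into 2 subunits of RNA polymerase I, 3 proteins of the box C/D and 4 of the box H/ACA small nucleolar ribonucleoproteins, 11 factors of the small subunit processome and 40S maturation, 14 factors of 60S assembly, 5 nucleolar chaperones and scaffolds, and the transcription factor Myc.

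The cells were αLPs, lymphoid progenitors sorted from bone marrow of C57BL/6 mice as lineage-negative CD127+ FLT3- LPAM-1+ cells. WT mice were compared with G3SEKO mice, a CRISPR-made line that lacks tandem super-enhancers related to Gata3, so the deletion is not limited to lymphoid cells. Cells of several young adult mice per genotype were pooled, marked with hashtag antibodies and captured together in 1 run per experiment, and mRNA was sequenced by TAS-Seq, which counts reads and not molecules. In experiment 1 the labels assign 3 hashtags to each genotype. For experiment 2 the labels list hashtags A0302 and A0303 both under WT and none under G3SEKO. A0302 was taken as WT and A0303 as G3SEKO, against that label, so the cells called G3SEKO in experiment 2 carry a hashtag labelled WT and every G3SEKO value of that experiment depends on this assignment. Hashtags are not stated to be separate mice, so 2 experiments are the replicates and p-values measure the spread between these sums, which may be technical.

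Cells with Id2, the regulator that marks commitment to innate lymphoid fates, were placed by mRNA into 5 gates that do not overlap. Mki67+ cells (cycling) were taken first, then Il1rl1+ cells (ST2, the IL-33 receptor of group 2 innate lymphoid cells), then Zbtb16+ cells (PLZF, of common innate lymphoid progenitors), then Icos+ cells, and the rest were kept as remaining. The limit for Id2 and for each gate was 1 on the scale ln(1 + reads per 10000). In WT the gates held, in that order, 12, 419, 97, 81 and 73 cells in experiment 1 and 78, 3515, 229, 544 and 764 in experiment 2. In G3SEKO they held 0, 2, 20, 7 and 14 cells in experiment 1 and 35, 49, 371, 321 and 383 in experiment 2. Il1rl1+ and Mki67+ cells of G3SEKO could therefore be summed in experiment 2 alone. A sum needed at least 5 cells, which left 18 sums.

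Ribosome production starts with transcription of ribosomal DNA by RNA polymerase I. The precursor RNA is modified by small nucleolar ribonucleoproteins, of which the box C/D class directs methylation and the box H/ACA class directs pseudouridylation, and is then cut and folded inside the small and large subunit precursors. Demand for ribosomes rises when lymphocytes grow and divide, and Myc is a known activator of many of these genes through the E-box CACGTG.

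RefSeq promoter sequences (assembly GRCm38.p6, from 250 bases before to 50 after the transcription start) were found for 34 of the 40 genes. The E-box CACGTG, which reads the same on both strands, was present in 9 of these 34 windows (26.5%) against 8.09% of 27025 windows of all genes, not matched for base composition. These 9 genes were Ltv1, Mybbp1a, Nop2, Pes1, Sdad1, Tsr1, Utp20, Utp4 and Wdr43. The ETS-type octamer CCGGAAGT, searched on both strands, was in 8 of 34 windows (23.5%) against 4.31% of all. The windows of 4 genes are shown as examples, 3 with the E-box and 1 without, for the division of cells by Myc described further on. Pes1 (a 60S assembly scaffold of the PeBoW complex; chr11:3963725-3964024, + strand), Tsr1 (a GTPase-like 40S maturation factor; chr11:74897830-74898129, + strand) and Utp4 (a subunit of the small subunit processome; chr8:106893390-106893689, + strand) hold the E-box, and Nop56 (a core box C/D protein; chr2:130274162-130274461, + strand) holds neither motif. Capitals mark the E-box CACGTG and the octamer CCGGAAGT, which on the opposite strand reads ACTTCCGG.
Pes1: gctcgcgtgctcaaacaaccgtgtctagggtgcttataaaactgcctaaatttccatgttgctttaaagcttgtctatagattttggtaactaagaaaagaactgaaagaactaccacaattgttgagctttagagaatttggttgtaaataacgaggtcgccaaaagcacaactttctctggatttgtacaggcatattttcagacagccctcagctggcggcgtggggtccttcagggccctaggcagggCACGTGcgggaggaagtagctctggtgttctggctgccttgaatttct
Tsr1: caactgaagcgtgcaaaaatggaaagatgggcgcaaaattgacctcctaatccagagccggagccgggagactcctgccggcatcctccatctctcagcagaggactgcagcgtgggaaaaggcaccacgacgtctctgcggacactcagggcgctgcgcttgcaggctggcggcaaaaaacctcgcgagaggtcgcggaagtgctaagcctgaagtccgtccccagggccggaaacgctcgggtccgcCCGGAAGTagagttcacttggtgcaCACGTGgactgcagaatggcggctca
Utp4: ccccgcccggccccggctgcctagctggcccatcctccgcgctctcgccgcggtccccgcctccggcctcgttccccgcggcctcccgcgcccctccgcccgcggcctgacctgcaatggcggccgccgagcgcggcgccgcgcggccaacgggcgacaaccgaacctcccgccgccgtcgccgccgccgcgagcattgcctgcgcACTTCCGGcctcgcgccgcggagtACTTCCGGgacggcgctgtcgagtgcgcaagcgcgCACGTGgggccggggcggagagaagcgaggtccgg
Nop56: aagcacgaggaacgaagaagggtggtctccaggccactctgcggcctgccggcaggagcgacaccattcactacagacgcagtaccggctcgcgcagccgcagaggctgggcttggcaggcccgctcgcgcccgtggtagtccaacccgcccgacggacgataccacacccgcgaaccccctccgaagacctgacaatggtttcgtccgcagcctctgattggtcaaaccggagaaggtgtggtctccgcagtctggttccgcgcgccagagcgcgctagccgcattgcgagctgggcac
In Tsr1 and Utp4 the E-box lay downstream of the octamer, near the start of transcription. A motif match is a description of sequence and no evidence of binding.

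Median depth ranged from 351352 to 839574 reads per cell in experiment 1 and from 21885 to 86011 in experiment 2, so each cell was thinned to 83000 or 6700 reads before summing. Values are reads per 1e6 reads (CPM) over the 23058 genes that both tables list. Among WT gates the summed ILC2 markers were highest in Il1rl1+ cells and the summed ILCP markers in Zbtb16+ cells. These lists hold gate genes, Il1rl1 and Icos among the ILC2 markers and Zbtb16 among the ILCP markers. Il1rl1 alone gave 1143 and 1461 CPM in WT Il1rl1+ cells of experiments 1 and 2, and Icos 1503 and 1432 CPM in WT Icos+ cells. The gating thus in part sets this ranking, which is no independent check of the gates. In G3SEKO cells of experiment 2 the ILC2 markers were higher in Icos+ cells (5052 CPM) than in Il1rl1+ cells (3692 CPM), which also held 2486 CPM of ILCP markers. Over all sums the LTi/ILC3 markers reached at most 1186 CPM, T lineage markers 631, NK/ILC1 markers 628, B lineage markers 111 and erythroid markers 55.4 CPM. Myeloid markers reached 16519 CPM in the 14 remaining G3SEKO cells of experiment 1 and at most 24.1 CPM in the other sums. The main results that sum those 14 cells (the average over gates, the count of pairs and the hashtag test) are given with and without them. The genotype tests of single gates and of the difference between gates came from a shared fit of all 18 sums. The spread behind their p-values therefore also includes these cells, and those p-values are given with them only. Gata3, the gene the deleted enhancers relate to (chr2:9857078-9890034, - strand, GRCm38), was at 758 to 1034 CPM in the 5 WT sums and 219 to 494 CPM in the 5 G3SEKO sums of experiment 2, with no overlap. In experiment 1 it was at 859 to 1357 CPM in WT, and the G3SEKO Zbtb16+ and Icos+ sums, at 868 and 947 CPM, lay within that range, while the remaining G3SEKO sum, at 315.4 CPM, lay below it.

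Together the 40 genes took 2978 to 4950 CPM of a sum. Ncl (nucleolin, a scaffold of pre-rRNA processing; chr1:86344719-86359400, - strand) and Npm1 (nucleophosmin, a chaperone of late subunits; chr11:33152287-33163206, - strand) held 32.2% to 46.4% of the reads of the 40 genes, with a median of 41.2%. Npm1 has near-identical processed copies in the genome, and how reads shared with them were counted is not given in the sources used here, so its level is uncertain. The 5 nucleolar chaperones and scaffolds together held a median of 49.1% of these reads, the 60S assembly factors 19.0%, the 40S factors 11.3%, the box H/ACA proteins 9.95%, the box C/D proteins 8.04%, Myc 1.76% and the polymerase I subunits 1.67%. These are shares of reads and not of molecules, and they rank no gene above another.

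In single cells Ncl and Npm1 were read most often. Of WT Il1rl1+ cells, Ncl had a read in 98.8% in experiment 1 and 75.2% in experiment 2, and Npm1 in 95.2% and 81.5%. The other 38 genes had a read in 4.1% to 60.4% of these cells in experiment 1 and in 1.8% to 22.7% in experiment 2, with Bysl and Rrp12 the lowest. A median of 12 of the 40 genes was read per WT Il1rl1+ cell in experiment 1 and 5 in experiment 2, so single-cell levels of most of these genes were not resolvable and sums were compared instead. Within gates, Spearman's rho across cells between Ncl and Npm1 was 0.04 to 0.28, a description over cells of shared libraries.

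**Figure D1:**
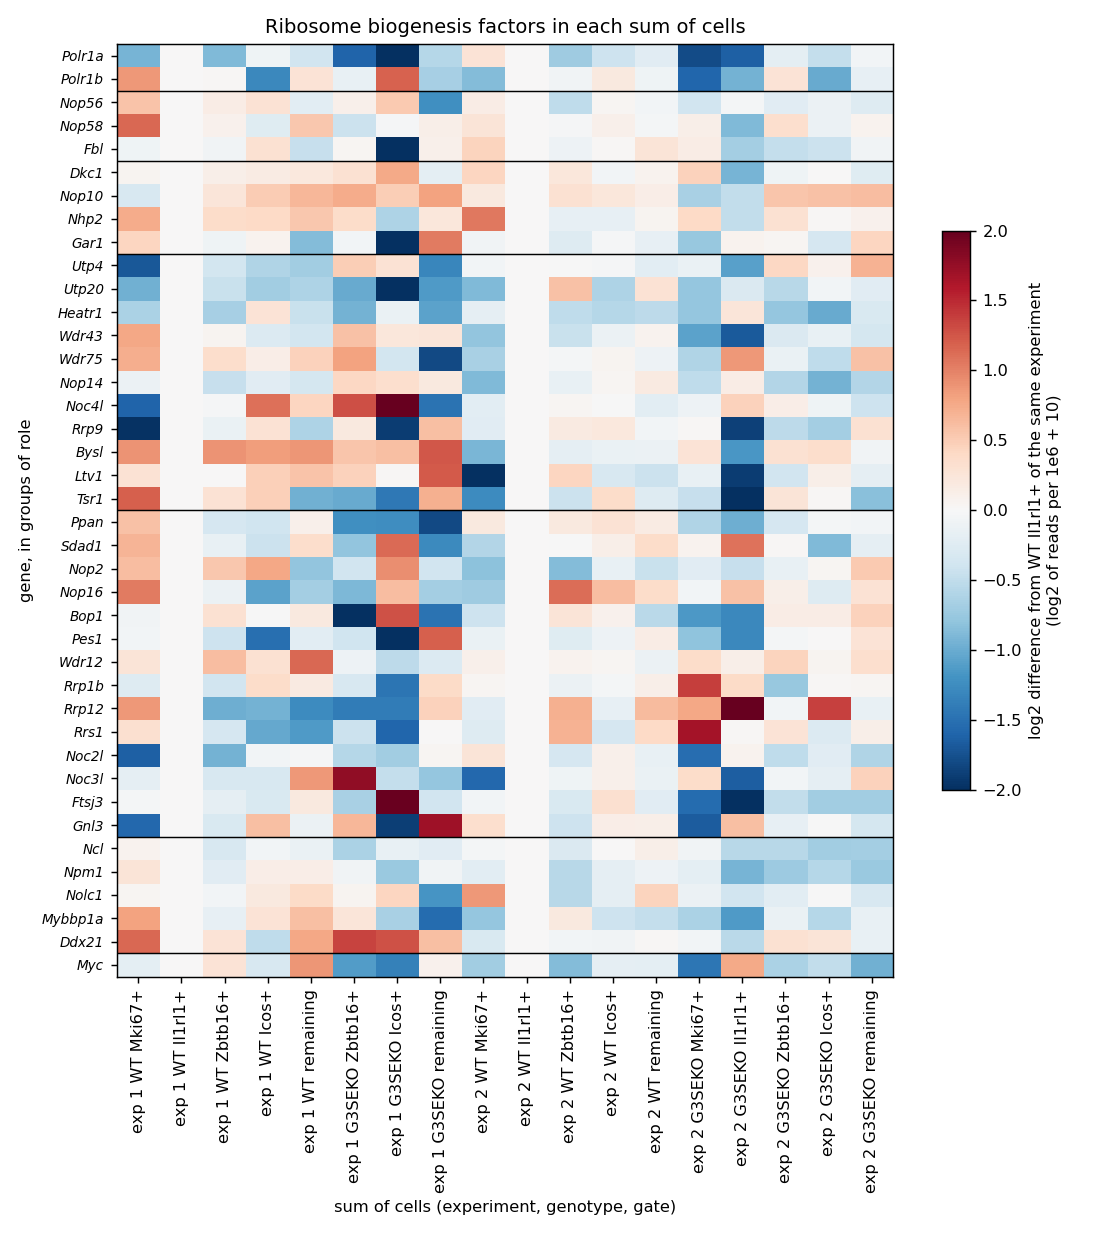
Each row is 1 of the 40 genes, grouped by role, and each column 1 of the 18 sums of cells (experiment, genotype and gate). Colour gives the log2 difference from the WT Il1rl1+ sum of the same experiment, on the scale log2(CPM + 10), limited to 2 in either direction. Most rows are pale in the WT Zbtb16+ and Icos+ columns, and the deepest colours lie mostly in sums of few cells, such as the 7 Icos+ cells of G3SEKO in experiment 1 and the 35 Mki67+ and 49 Il1rl1+ cells of G3SEKO in experiment 2.

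The level of the whole set differed little between stages of WT cells at equal depth. Its sum was 4950 CPM in Mki67+, 4272 in Il1rl1+, 3841 in Zbtb16+, 4405 in Icos+ and 4584 in remaining cells of experiment 1. In experiment 2 the same gates gave 3970, 4206, 3599, 4068 and 4199 CPM. Zbtb16+ cells were lowest in both experiments, and the order of the other gates changed between experiments. In the WT hashtags of experiment 1 the sum was 3742, 3640 and 4216 CPM in Zbtb16+ cells and 4120, 4383 and 4354 CPM in Il1rl1+ cells. Zbtb16+ cells were below Il1rl1+ cells within all 3 hashtags, though the ranges over hashtags overlapped.

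**Figure D2:**
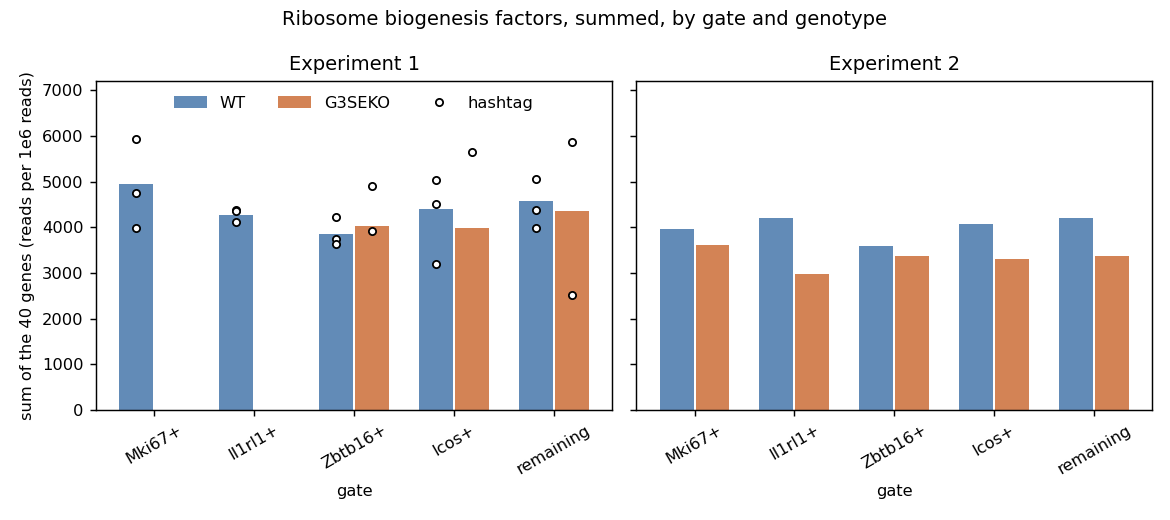
Sum of the 40 genes in CPM (vertical axis, from 0) by gate, with 1 panel per experiment. Bars are the sums of all cells of a genotype (1 value each, no error), and open points are single hashtags of experiment 1 with at least 3 cells. The G3SEKO bars of experiment 2 all lie below the WT bars of the same gate, by 6.55% in Zbtb16+ and by 29.2% in Il1rl1+ cells.

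The first stage comparison asked whether cycling cells gave these genes a larger share of their mRNA. Against Il1rl1+ cells, the sum in Mki67+ cells was 15.9% higher in experiment 1 (12 cells) and 5.61% lower in experiment 2 (78 cells), so no direction held. Among the roles, the box C/D proteins were 60.2% higher in experiment 1 and 25.4% higher in experiment 2, and the box H/ACA proteins 9.72% and 48.7% higher. The polymerase I subunits were 5.58% and 3.34% lower and Myc 14.03% and 42.5% lower, while the small subunit processome and 40S factors were 11% higher in experiment 1 and 45.4% lower in experiment 2. The other roles also differed in direction between the experiments. By edgeR's quasi-likelihood test, adjusted by Benjamini-Hochberg over all genes, 0 of the 40 genes passed an adjusted p of 0.05, where 0.839% of all 15252 genes tested did (74 higher, 54 lower). At an unadjusted p under 0.05 there were 2 members (5%) against 15.7% of all genes, and DESeq2 called 1 member, Nhp2, where it called 9.88% of all genes. The median log2 change was -0.06 over the members and -0.26 over all genes. In 13 of the 40 (32.5%) the ratio was below 0 in both experiments, against 44.4% of all genes.

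Nhp2, a box H/ACA core protein named here because its values stood out, went from 58.1 CPM in Il1rl1+ to 104 CPM in Mki67+ cells in experiment 1 and from 72.5 to 161 CPM in experiment 2. Its fitted log2 difference was 0.93 ± 0.35 (SE), with an edgeR adjusted p of 0.25 and a DESeq2 adjusted p of 0.036. Nop56 stood at 94.8 CPM in Il1rl1+ and 146 CPM in Mki67+ cells of experiment 1, and 119 and 134 CPM in those of the other experiment. Those values gave a log2 difference of 0.31 with a 95% interval from -0.35 to 0.97. Fbl (fibrillarin, the box C/D methyltransferase) went from 103 to 96.4 CPM and from 133 to 186 CPM, and Dkc1 (dyskerin, the box H/ACA pseudouridine synthase) from 139 to 145 CPM and from 119 to 163 CPM. For Fbl and Dkc1 the intervals were -0.61 to 0.84 and -0.39 to 0.74 on the log2 scale. Ncl changed by -0.06 (interval -0.32 to 0.19) and Npm1 by -0.06 (interval -0.35 to 0.23), the narrowest intervals among the genes named here. Polr1a and Polr1b, the largest subunits of polymerase I, went in opposite directions in the experiments: Polr1a was at 55.1 and 24.1 CPM, then 68.4 and 84.2 CPM, in Il1rl1+ and Mki67+ cells. Polr1b was at 22.6 and 49.2 CPM, then 32.6 and 13.4 CPM. Utp20, a small subunit processome factor also named after its values were seen, was lower in Mki67+ cells in both experiments (33.1 to 12.1 and 43.5 to 19.1 CPM), with a log2 difference of -1.43 and an edgeR adjusted p of 0.27.

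Before thinning, Mki67+ cells yielded more reads in all. Their median reads per cell were 839574 against 369245 in Il1rl1+ cells in experiment 1, and 73867 against 30998 in experiment 2. The median number of reads of the 40 genes per cell was 2967 against 1562 in experiment 1 and 272 against 128 in experiment 2. Equal-depth values therefore show shares of mRNA and not amounts per cell, and reads without molecular identifiers cannot give the amount.

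Progenitors marked by Zbtb16 had less Ncl and Npm1 than Il1rl1+ cells in each experiment, though neither passed the adjusted threshold. Ncl measured 1089 CPM in Il1rl1+ and 869 CPM in Zbtb16+ cells of experiment 1, then 774 and 634 CPM in those of experiment 2. Npm1 measured 894 and 760 CPM, then 1018 and 693 CPM. The fitted log2 differences were -0.39 ± 0.11 (SE; 95% interval -0.65 to -0.14; edgeR adjusted p = 0.17) for Ncl and -0.49 ± 0.13 (interval -0.78 to -0.19; edgeR adjusted p = 0.13) for Npm1. The pair together was 17.8% lower in experiment 1 and 25.9% lower in experiment 2.

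Without this pair, little of the stage difference was left. The sum of all 40 genes was 10.1% and 14.4% lower in Zbtb16+ than in Il1rl1+ cells, a log2 ratio of -0.19 ± 0.05 (SD, n = 2 experiments), and the sum of the other 38 genes was 3.4% and 5.89% lower. The polymerase I subunits were 37.4% and 32.2% lower together and the small subunit processome and 40S factors 6.69% and 5.04% lower, while the box H/ACA proteins were 14.4% and 9.14% higher. The box C/D proteins, the 60S factors and Myc differed in direction between the experiments. Polr1a went from 55.1 to 25.5 CPM in the first experiment and from 68.4 to 37.8 CPM in the second, with a log2 difference of -1.08 ± 0.48 (SE; edgeR adjusted p = 0.45). Polr1b was at 22.6 and 23.1 CPM, then at 32.6 and 30.6 CPM. Nop56 differed in direction between experiments (94.8 and 106 CPM, then 119 and 80.9 CPM), while Fbl changed by -0.18 (interval -0.89 to 0.53) and Dkc1 by 0.10 (interval -0.45 to 0.66). By edgeR 0 of 40 members passed against 1.34% of all 15252 genes (103 higher, 102 lower). At an unadjusted p under 0.05 there were 2 members (5%) against 11.5% of all, and DESeq2 called 0 members and 6.42% of all genes. In 23 of the 40 (57.5%) the ratio was below 0 in both experiments, against 39.8% of all genes, with medians of -0.18 and -0.04.

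Icos+ cells showed no shared direction against Il1rl1+ cells. The sum was 3.12% higher in experiment 1 and 3.28% lower in experiment 2. The edgeR test called 0 of 40, against 0.00656% of all genes (1 gene of 15252), with 0 members at an unadjusted p under 0.05 against 2.83% of all, and 0 by DESeq2 against 0.439%. The ratio was below 0 in both experiments in 14 of the 40 (35%), against 35.2% of all genes. Ncl was at 1049 CPM in Icos+ cells of experiment 1 and 782 CPM in experiment 2, and Npm1 at 985 and 899 CPM. The intervals of the difference from Il1rl1+ cells were -0.30 to 0.21 for Ncl and -0.34 to 0.24 for Npm1 on the log2 scale.

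**Figure D3:**
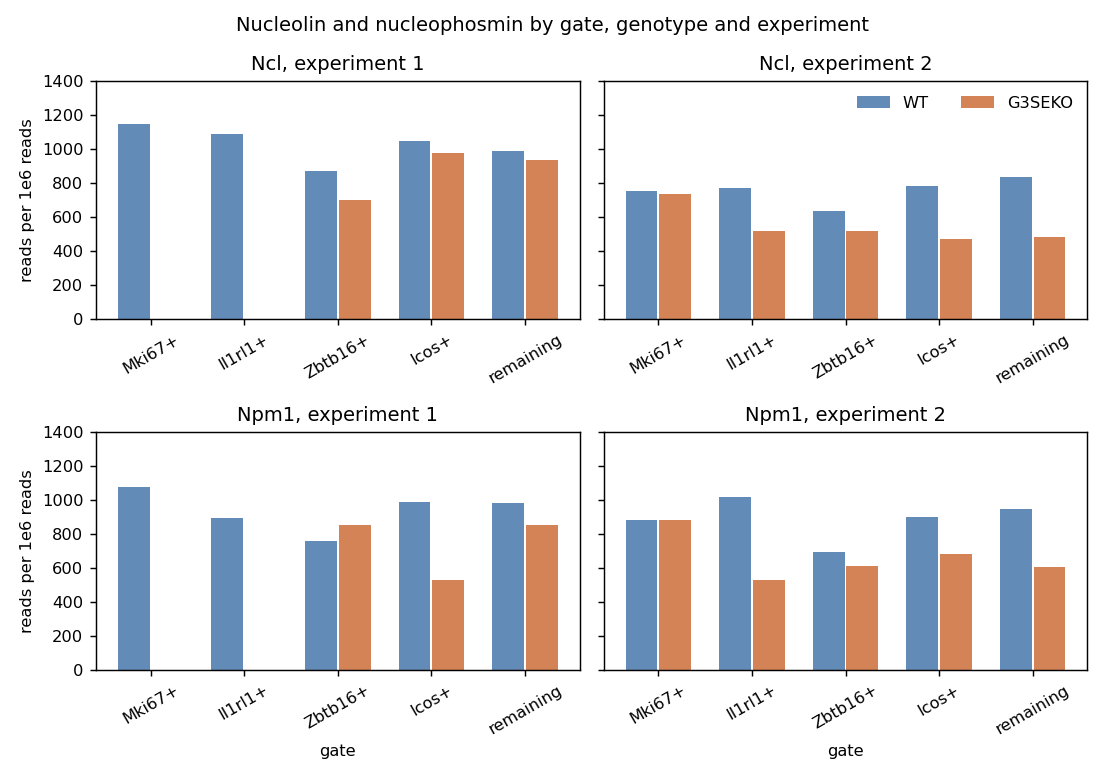
Ncl (upper panels) and Npm1 (lower panels) in CPM, by gate, for WT and G3SEKO in experiment 1 (left) and experiment 2 (right). Every bar is 1 sum of cells, so there are no error bars. In experiment 2 the G3SEKO bars of Ncl reach 472 to 522 CPM outside the Mki67+ gate, below all WT bars (634 to 837 CPM), and the 2 genotypes nearly meet in Mki67+ cells at 738 and 752 CPM. The share of all genes separated in this way is not given. Of all genes tested, 67.3%, 45.4% and 52.7% were below WT in the Il1rl1+, Zbtb16+ and Icos+ gates of experiment 2.

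The genotype comparison asked whether loss of the Gata3 enhancers changed these genes within a gate. In Il1rl1+ cells, of which G3SEKO had 49 in experiment 2 and too few in experiment 1, the sum was 2978 CPM against 4206 CPM in WT, 29.2% lower, and 20.2% lower without Npm1 and Ncl. The log2 ratio of -0.50 became -0.22 with cells gated at 1 read or more of the gate gene, a setting in which both experiments gave a sum, and -0.33 without Npm1 and Ncl. Ncl was at 521 CPM against 774 CPM in WT, and Npm1 at 530 against 1018 CPM. Dkc1 was at 57.9 against 119 CPM, Fbl at 79.2 against 133 CPM, Nop56 at 116 against 119 CPM, Polr1a at 15.2 against 68.4 CPM and Polr1b at 12.2 against 32.6 CPM. At this depth 1 read was worth 3.05 CPM in the G3SEKO sum, so both polymerase values rest on 5 reads or fewer. Myc was at 152 against 86.5 CPM. Markers moved with genotype in this gate: the ILCP markers were at 2486 CPM in G3SEKO and 194 CPM in WT, the LTi/ILC3 markers at 238 and 24.5 CPM, and the ILC2 markers at 3692 and 5048 CPM. The proliferating markers were at 469 and 216 CPM, the B lineage markers at 94.4 and 31.1 CPM, the NK/ILC1 markers at 33.5 and 1.70 CPM and the erythroid markers at 0 and 43.4 CPM. Their part in the result was not tested.

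None of these differences passed the adjusted threshold. The fitted log2 changes were -1.0 ± 0.30 (SE; edgeR adjusted p = 0.41) for Npm1, -0.73 ± 0.28 (adjusted p = 0.59) for Ncl and -1.18 ± 0.48 (adjusted p = 0.63) for Dkc1. Wdr43, of the small subunit processome and named after its values were seen, was at 24.4 against 100.2 CPM. No member (0 of 40) passed in edgeR against 0.0515% of all 15532 genes (7 higher, 1 lower), DESeq2 called 0 members against 1.24% of all, and 6 members (15%) had an unadjusted p under 0.05 against 7.33% of all. The median log2 change was -0.74 over the members and -0.69 over all genes. That gap depended on the setting, with medians of -0.45 and -0.19 by DESeq2, -0.64 and -0.35 with the same thinning, -0.26 and -0.07 with gates at 1 read, and -0.54 and -0.63 without thinning. With 1 sum of 49 cells, the fit assumed that this sum varied like the other groups. Gata3 itself passed in this gate, with a log2 change of -2.45 and an edgeR adjusted p of 0.041, but the call was lost without the block by experiment, without thinning, with gates on thinned counts, with gates at 1 read and with hashtags called by fold (edgeR adjusted p from 0.086 to 0.31).

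Zbtb16+ cells, with cells of both genotypes in both experiments, showed no shared direction, and their ILCP markers lay between 4520 and 4970 CPM in both genotypes. The sum was 4033 CPM in G3SEKO and 3841 CPM in WT in experiment 1, and 3363 against 3599 CPM in experiment 2. Ncl was lower in both, at 700 against 869 CPM and at 522 against 634 CPM. Npm1 went from 760 to 854 CPM in experiment 1 and from 693 to 613 CPM in experiment 2. Their log2 changes were -0.29 (interval -0.76 to 0.18) and 0.01 (interval -0.48 to 0.50). The edgeR test passed 0 of 40 and 0% of all genes, with 0 members at an unadjusted p under 0.05 against 1.91% of all and 0 by DESeq2, which called 0 of all genes. The ratio was below 0 in both experiments in 9 of the 40 (22.5%), against 26.7% of all genes. The median was -0.04 over the members and -0.05 over all genes, and the median SE of a member was 0.73.

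In Icos+ cells the sum was lower in G3SEKO in both experiments, at 3984 against 4405 CPM (9.57%) and at 3296 against 4068 CPM (19.0%). Ncl was at 976 against 1049 CPM and at 472 against 782 CPM, and Npm1 at 529 against 985 CPM and at 683 against 899 CPM. The pair was 26.0% and 31.2% lower, while the other 38 genes together were 4.53% higher and 10.3% lower. Fitted changes were -0.72 ± 0.23 (SE; edgeR adjusted p = 0.76) for Npm1 and -0.50 ± 0.22 (adjusted p = 0.78) for Ncl. Fbl was at 5.16 CPM in the 7 G3SEKO cells of experiment 1, which is 3 reads, against 129 CPM in WT, and at 96.8 against 136 CPM in experiment 2. Polr1a had no read in those 7 cells, which allows up to 5.16 CPM. Here edgeR passed 0 of 40 and 0% of all genes, 3 members (7.5%) had an unadjusted p under 0.05 against 6.21% of all, and DESeq2 called 0 members and 1.32% of all genes. The ratio was below 0 in both experiments in 18 of the 40 (45%), against 34.8% of all genes, and the medians were -0.36 and -0.24. Markers moved with genotype here too. The ILCP markers were at 2575 CPM in G3SEKO against 1146 CPM in WT in experiment 1 and at 2311 against 540 CPM in experiment 2, and the LTi/ILC3 markers at 1186 against 95.2 and at 506 against 87.0 CPM. The NK/ILC1 markers were at 22.4 against 155 CPM in experiment 1 and at 152 against 15.6 CPM in experiment 2. The B lineage markers were at 0 against 43.4 CPM in experiment 1 and at 91.1 against 42.0 CPM in experiment 2. In the same order, the erythroid markers were at 0 against 5.80 and at 0.46 against 55.4 CPM, and the proliferating markers at 299 against 249 and at 354 against 281 CPM. The part of these markers in the result was not tested.

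In cycling G3SEKO cells, 35 in experiment 2, Ncl and Npm1 were close to their WT values. Ncl was at 738 CPM against 752 CPM in WT and Npm1 at 883 against 881 CPM, with intervals of -0.71 to 0.50 and -0.78 to 0.49 on the log2 scale, wide enough to include the changes fitted in Icos+ cells. The sum was 3609 against 3970 CPM, 9.10% lower, and without the pair 14.9% lower. This direction did not hold: the log2 ratio of the sum, -0.14, became 0.045 with gates at 1 read, where both experiments gave a sum, and 0.079 with no Id2 limit. The ILCP markers were at 1650 CPM in these G3SEKO cells against 710 CPM in WT and the ILC2 markers at 2674 against 4370 CPM. The proliferating markers were at 4721 against 3297 CPM, the LTi/ILC3 markers at 222 against 53.6 CPM, the B lineage markers at 111 against 55.5 CPM and the NK/ILC1 markers at 85.3 against 1.91 CPM. The part of these lists in the result was not tested. Among the 40 edgeR called 0, against 0.00644% of all genes (1 gene), with 0 at an unadjusted p under 0.05 against 6.26% of all, and DESeq2 called 0 members and 0.415% of all genes. In the remaining cells of experiment 2 the sum was 3365 against 4199 CPM, with Ncl at 481 against 837 CPM and Npm1 at 603 against 948 CPM. The ILCP markers there were at 2304 CPM in G3SEKO and 437 CPM in WT, the ILC2 markers at 1965 and 2643 CPM, the LTi/ILC3 markers at 589 and 131 CPM and the NK/ILC1 markers at 210.4 and 32.6 CPM. The T lineage markers were at 116 and 48.1 CPM, the B lineage markers at 91.2 and 19.1 CPM and the proliferating markers at 339 and 217 CPM, and the part of these lists was not tested. The remaining cells of experiment 1, which carry the myeloid markers in G3SEKO, gave 4347 against 4584 CPM.

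**Figure D4:**
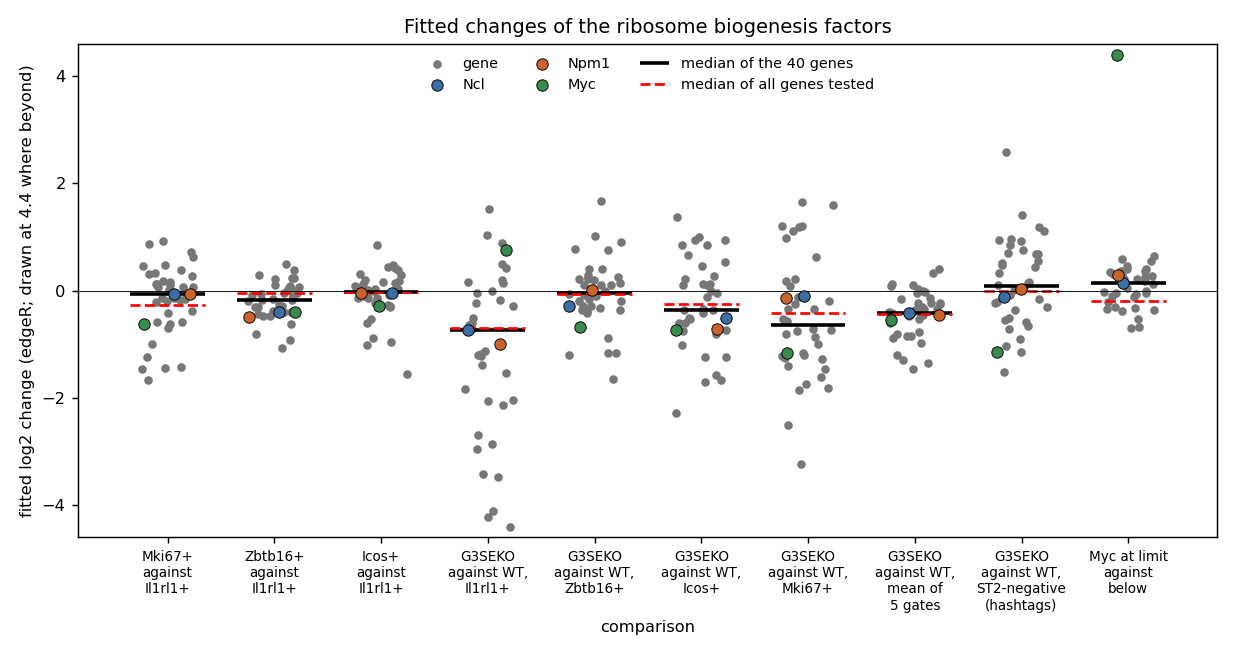
Fitted log2 changes of the 40 genes (vertical axis, edgeR; drawn at 4.4 where beyond) in the 10 comparisons drawn, 1 point per gene, with Ncl, Npm1 and Myc in colour. Black lines are medians of the 40 genes and red dashed lines medians of all genes tested. Medians of the 40 genes lie between -0.18 and -0.03 for the 3 stage comparisons, and the changes for G3SEKO Il1rl1+ cells, which rest on 1 sum, run from -8.50 to 1.52.

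Whether the genotype change differed between gates was tested by itself. The change in Il1rl1+ minus that in Zbtb16+ cells was -1.01 ± 0.38 (SE) for Npm1, with an edgeR adjusted p of 0.95, and -0.44 (interval -1.20 to 0.32) for Ncl. In that test 0 of 40 members and 0% of all genes passed, and 3 members (7.5%) against 4.8% of all had an unadjusted p under 0.05. No difference between the gates passed the test.

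The change averaged over the 5 gates, a comparison added after the gates had been seen, gave the smallest adjusted p-values of these genes among the genotype comparisons. Npm1 changed by -0.46 ± 0.12 (SE; 95% interval -0.71 to -0.20; edgeR adjusted p = 0.098) and Ncl by -0.42 ± 0.11 (interval -0.65 to -0.18; adjusted p = 0.11). Ppan, a 60S assembly factor, changed by -1.30 ± 0.37 (adjusted p = 0.14). By edgeR 0 of 40 passed against 1.11% of all genes (45 higher, 127 lower), 6 members (15%) had an unadjusted p under 0.05 against 12.5% of all, and DESeq2 called 1 member (Ppan, adjusted p = 0.014) and 4.71% of all genes. The median was -0.41 over the members and -0.43 over all genes, and by DESeq2 -0.28 and -0.11. The direction of that gap depended on the setting: the members lay just above all genes in the main fit and below them by DESeq2. Without the 14 cells with myeloid markers, Npm1 changed by -0.54 ± 0.11 (SE; edgeR adjusted p = 0.036) and Ncl by -0.50 ± 0.10 (adjusted p = 0.032). Ppan then changed by -1.10 ± 0.32 (edgeR adjusted p = 0.16). In that fit 2 of 40 members passed against 1.45% of all 15776 genes, and the medians were -0.49 and -0.43. Thinning both experiments to the same 6700 reads called Ncl and Npm1 (edgeR adjusted p = 0.016 and 0.014), 2 of 40 members (5%) against 3.53% of all 12300 genes tested there, with medians of -0.34 over the members and -0.20 over all genes. With no filter on low counts 1 member, Npm1 (edgeR adjusted p = 0.038), passed against 1.19% of all genes. Gates of 1 capture are not independent, so these p-values are too small. Counting pairs instead, G3SEKO lay below WT in all 8 pairs of sums for 2 members, Ncl and Ppan (5%), and for 2.65% of all genes, after TMM scaling. For Npm1 it lay below in 7 of 8, and 50.6% of all genes lay below in 5 or more. Without the pair of the 14 cells, the same 2 members lay below in all 7 pairs, against 3.7% of all genes. The ribosomal protein share of reads moved with these genes: its median per cell was 8.71% to 10.3% in the G3SEKO gates other than Mki67+ of experiment 2 and 11.4% to 14.8% in WT, and its part in the result was not tested.

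By hashtag in experiment 1, where the labels give both genotypes, no difference showed. Over cells with neither Mki67 nor Il1rl1 at the limit, the sums were 4361, 4352 and 3854 CPM in the WT hashtags and 4215, 4219 and 3934 CPM in the G3SEKO hashtags, and the groups overlapped (4189 ± 290 and 4123 ± 163, SD, n = 3 each). Ncl was at 963 ± 115 CPM in WT and 832 ± 77.9 in G3SEKO, and Npm1 at 875 ± 138 and 848 ± 243. The G3SEKO hashtags held 20, 6 and 15 cells, and Gata3 in 1 of them, at 1422 CPM, exceeded all 3 WT values (826 to 1118 CPM). No member (0 of 40) and 0% of all 11628 genes passed in edgeR, 3 members (7.5%) against 6.12% of all had an unadjusted p under 0.05, and DESeq2 called 0 members and 1.11% of all genes. These sums include the 14 remaining G3SEKO cells with myeloid markers. Over Zbtb16+ and Icos+ cells alone the sums were 4350, 4058 and 3818 CPM in the WT hashtags and 3665, 3021 and 5182 CPM in the G3SEKO hashtags (15, 4 and 8 cells). Again the groups overlapped, and edgeR passed 0 of the 39 members tested and 0% of all 10958 genes, with 2 members (5.13%) at an unadjusted p under 0.05 against 6.34% of all. Ncl then changed by -0.30 ± 0.37 (SE) and Npm1 by -0.21 ± 0.20. With the remaining cells, the 95% intervals of the log2 change, -0.50 to 0.27 for Ncl and -0.49 to 0.56 for Npm1, include the changes averaged over all sums, -0.42 for Ncl and -0.46 for Npm1.

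Further ribosome biogenesis factors, a second list of 115 genes, were read the same way. None passed edgeR's adjusted threshold in the 3 stage or 4 gate-wise genotype comparisons, where DESeq2 was read for the 40 members only. At an unadjusted p under 0.05 the list gave 15 genes (13.0%, against 15.7% of all genes), 3 (2.61%, against 11.5%) and 0 (0%, against 2.83%) in the stage comparisons of Mki67+, Zbtb16+ and Icos+ cells. In the genotype comparisons it gave 8 (6.96%, against 7.33%) in Il1rl1+, 1 (0.87%, against 1.91%) in Zbtb16+, 4 (3.48%, against 6.21%) in Icos+ and 8 (6.96%, against 6.26%) in Mki67+ cells. In the average over gates 1 of 115 passed (0.87%, against 1.11% of all genes), Mdn1 (a 60S remodelling ATPase), with a log2 change of -2.85 and an adjusted p of 0.034. Without the 14 cells with myeloid markers Mdn1 alone again passed (0.87%, against 1.45% of all genes), at -2.94 with an edgeR adjusted p of 0.034. Their sum in G3SEKO against WT was 6.27% higher in Il1rl1+, 1.15% lower and 0.34% higher in Zbtb16+, 5.51% and 1.5% higher in Icos+ and 3.78% lower in Mki67+ cells. The median fitted log2 change of the further list was -0.23 in Il1rl1+ and -0.19 in Icos+ cells, above the medians of -0.69 and -0.24 over all genes. The members had medians of -0.74 and -0.36, below those of all genes. The members other than Npm1 and Ncl were 20.2% lower in Il1rl1+ cells, and 4.53% higher in experiment 1 and 10.3% lower in experiment 2 in Icos+ cells. The lists were not tested against each other.

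Myc itself varied from sum to sum, and the full order of the WT gates differed between the experiments. In WT it was at 85.4, 99.3, 122, 78.0 and 192 CPM in the Mki67+, Il1rl1+, Zbtb16+, Icos+ and remaining cells of experiment 1 and at 49.8, 86.5, 43.0, 75.2 and 73.9 CPM in those of experiment 2. G3SEKO gave 40.4, 32.7 and 106 CPM in the Zbtb16+, Icos+ and remaining cells of experiment 1, and 25.6, 152, 52.3, 58.6 and 39.4 CPM in the 5 gates of experiment 2. Within WT, Il1rl1+ cells were above Mki67+ and Icos+ cells in both experiments. After TMM scaling G3SEKO lay below WT in 6 of 8 pairs of sums, and 50.6% of all genes lay below in 5 or more pairs. Its change passed in no stage or genotype comparison.

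Cells were then divided, within each gate, genotype and experiment, by whether Myc was at the limit of 1 on the ln scale, a comparison chosen after seeing the data. That gave 12 pairs of sums, 8 of WT and 4 of G3SEKO from experiment 2, with 7 to 389 cells on the side with Myc. The sum of the other 39 genes was higher in the cells with Myc in 12 of 12 pairs, by 2.68% to 47.8% with a median of 20.3%. In WT Il1rl1+ cells it was 4266 against 4155 CPM in experiment 1 and 4236 against 4105 CPM in experiment 2, the narrowest pairs. In WT Zbtb16+ cells it was 5025 against 3461 CPM and 4496 against 3476 CPM. In G3SEKO it was 3413 against 2727 CPM in Il1rl1+, 4047 against 3225 in Zbtb16+, 4292 against 3125 in Icos+ and 3808 against 3296 in remaining cells.

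The further list was higher in 10 of the 12 pairs, by a median of 6.33%. Without Npm1 and Ncl, the remaining 37 genes were higher in 11 of 12, by a median of 25.4%. Npm1 was higher in 11 of 12 (median 19.7%) and Ncl in 9 of 12 (median 4.38%). The share of all genes higher in as many pairs is not given here, so these counts have no background. Over the pairs edgeR passed 0 of the 39 genes against 0.0298% of all 10084 genes, 4 had an unadjusted p under 0.05 against 6.46% of all, and DESeq2 called 0 of the 39 and 0.0992% of all genes. The fitted log2 differences were 0.30 ± 0.09 (SE; adjusted p = 0.74) for Npm1, 0.56 ± 0.22 (adjusted p = 0.74) for Fbl and 0.14 (interval -0.06 to 0.33) for Ncl. The median difference was 0.14 over the 39 genes and -0.20 over all genes. It was -0.08 over the further list and 0.09 over 88 ribosomal protein genes, of which 11.4% had an unadjusted p under 0.05 in edgeR. Among the 34 genes with a promoter window, the median was 0.26 over the 9 with an E-box and 0.14 over the 25 without. The 4 genes whose windows are shown ran the other way: Pes1, Tsr1 and Utp4, with the E-box, were at 0.05, -0.04 and -0.32, and Nop56, without it, was at 0.40, each with a 95% interval that included 0. Cells called by a read of Myc can also differ in depth, and in most pairs the median reads were higher with Myc. In WT Il1rl1+ cells of experiment 1 they were 428322 with Myc against 361328 without, and in G3SEKO Icos+ cells of experiment 2 70761 against 41917. They were lower with Myc in WT Zbtb16+ cells of experiment 1 (483449 against 678313) and in WT Icos+ and remaining cells of experiment 2. The part of depth in the result was not tested beyond the thinning.

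**Figure D5:**
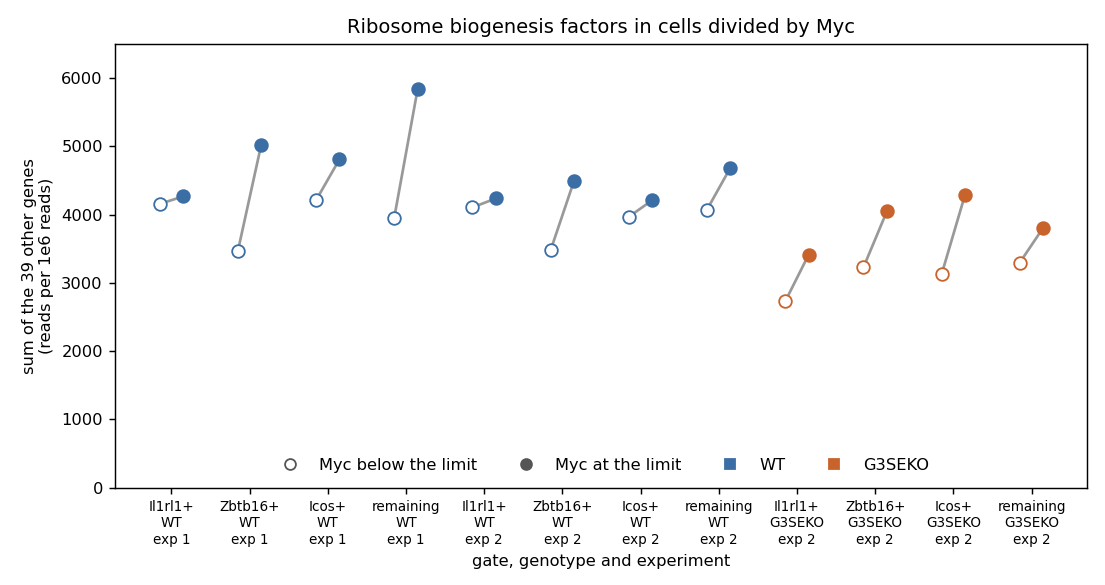
Sum of the 39 genes other than Myc in CPM (vertical axis, from 0) in each of 12 pairs of sums, for cells with Myc at the limit and cells with Myc below it. The point with Myc lies above its partner in all 12 pairs, from 2.68% above in WT Il1rl1+ cells to 47.8% above in the WT remaining cells of experiment 1.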

How the data were processed

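The authors sorted αLPs, captured both genotypes together per experiment on BD Rhapsody, mapped reads with Bowtie2 to Ensembl GRCm38 and deposited, per cell, raw read counts for genes and for hashtags, without collapsing reads of 1 molecule. Seurat 4 is named in the labels.

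Cells kept here had at least 83000 (experiment 1) or 6700 (experiment 2) reads, at most 10% mitochondrial reads, 1 hashtag in the deposited cell name and Id2 at the limit, which left 725 of 1033 and 6289 of 7630 cells. Hashtag doublets were left out and no doublet caller was run. The experiments shared 11 barcode numbers. Counts were thinned per cell, summed per gate, genotype and experiment and tested with edgeR 4.0.16 (TMM, filterByExpr, quasi-likelihood, two-sided, experiment as block because both genotypes and all gates of an experiment came from 1 capture). Python 3.11.15, R 4.3.3 and DESeq2 1.42.0 were used, and the scripts were tested on simulated data. Counting intervals cover counting error only.

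Named by rule were members called with the same sign in both experiments (up to 8 a comparison) and, always, Myc, Polr1a, Polr1b, Ncl, Npm1, Nop56, Fbl, Dkc1, Gata3 and the gate genes. The members and lists were chosen with earlier results of these data known. Alternatives covered depth, gates, filters, scaling, tool, block and each replicate.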

Additional observations from a re-analysis of the deposited data

How the results depend on the processing

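No member passed in any planned comparison, and that count changed in 1 case, to 1 (Nhp2) by DESeq2 in Mki67+ against Il1rl1+ cells. In the average over gates it became 2 of 40 with both experiments thinned to the same reads (against 3.53% of all genes), 2 (Ncl and Npm1) with the 14 remaining G3SEKO cells of experiment 1 left out (1.45%), 1 by DESeq2 (4.71%) and 1 with no filter on low counts (1.19%). Of 397 values of single genes under the alternatives, 365 kept their direction and side of the threshold. Gating at 1 read or more of the gate gene turned Ftsj3 in Il1rl1+ cells to 0.10, Wdr43 and Noc3l in the difference between gates to 0.31 and 0.19, and Ppan, Gnl3 and Ddx21 in the hashtag test to 2.17, -5.89 and -1.55. In that setting the G3SEKO side of the hashtag test was a single hashtag of 6 cells, so its values have no spread within G3SEKO. Gata3 in the hashtag test turned to 0.011 and 0.071 without G3SEKO replicate 1 or 3, in a range from -0.80 to 0.071, and to 0.12 with the remaining cells left out. The cause was not tested.

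The log2 ratio of the sum in Zbtb16+ against Il1rl1+ cells, -0.19, became -0.31 with gates at 1 read, -0.25 with totals without ribosomal protein, predicted (Gm) and mitochondrial genes, and -0.069 without Npm1 and Ncl. For G3SEKO in Il1rl1+ cells, -0.50 became -0.36 without thinning, -0.60 with gates on thinned counts, -0.22 with gates at 1 read, -0.40 with hashtags called by fold, -0.60 with those other totals and -0.33 without Npm1 and Ncl. In Icos+ cells -0.22 became -0.047 without Npm1 and Ncl and -0.40 with gates at 1 read, where experiment 2 alone gave a sum (-0.30 in that experiment as reported), and in Mki67+ cells -0.14 became 0.045 with gates at 1 read and 0.079 with no Id2 limit. With 1 experiment at a time the ratios ran from -0.08 to 0.21 (Mki67+), -0.22 to -0.15 (Zbtb16+) and -0.05 to 0.04 (Icos+) for stage, and from -0.10 to 0.07 (Zbtb16+) and -0.30 to -0.15 (Icos+) for genotype. Leaving out any hashtag replicate left 0 members called in the hashtag test, and leaving out either experiment left 0 in the division by Myc.

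Without the block by experiment, 0 members were called in each comparison fitted with it, Ncl and Npm1 changed by -0.39 and -0.48 in Zbtb16+ against Il1rl1+ cells, and Gata3 in Il1rl1+ cells lost its call at -2.69. Gata3 also lost it without thinning (-1.91), with gates on thinned counts (-1.99), with gates at 1 read (-1.24) and with hashtags called by fold (-1.69). Calls over all genes moved more than those of the members: from 128 to between 0 and 1215 (Mki67+), from 205 to between 1 and 922 (Zbtb16+) and from 1 to between 1 and 63 (Icos+) for stage, from 8 to between 0 and 126 (Il1rl1+), and from 0, 0 and 1 to at most 0, 65 and 37 (Zbtb16+, Icos+, Mki67+) for genotype, from 172 to between 23 and 547 in the average over gates, from 0 to at most 40 in the difference between gates and 126 by hashtag, and from 3 to between 1 and 18 for Myc. DESeq2 and the same thinning of both experiments gave most of the highest counts, and the cause was not tested. Without thinning the members' median in Mki67+ against Il1rl1+ cells turned from -0.06 to 0.18. With 2 experiments and 5 G3SEKO sums of 7 to 49 cells, most single genes rest on few reads.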

Other observations

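Ribosomal protein genes, the products that the factors above assemble, were read on the same sums as a list of 90 genes added after seeing the data. In edgeR 28 were called lower and 0 higher in Mki67+ than in Il1rl1+ WT cells, 31.1% of the list against 0.839% of all genes, with a median log2 change of -0.50 against -0.26 over all genes. In Zbtb16+ cells 12 were called lower and 0 higher, 13.3% against 1.34%, with medians of -0.35 and -0.04. In Icos+ cells 0 were called, against 0.00656% of all genes, with 6 (6.67%) at an unadjusted p under 0.05 against 2.83%. For genotype, edgeR called 0 of 90 in each of the Il1rl1+, Zbtb16+, Icos+ and Mki67+ gates, with 60, 1, 72 and 24 at an unadjusted p under 0.05 against 7.33%, 1.91%, 6.21% and 6.26% of all genes. By hashtag in experiment 1, where the labels give both genotypes, it called 0 of 88, with 7 at an unadjusted p under 0.05 (7.95%, against 6.12% of all) and a median of -0.14. With the remaining cells left out it again called 0 of 88, with 22 at an unadjusted p under 0.05 (25%, against 6.34% of all). The medians were then -0.28 over this list and -0.09 over all genes. Averaged over the 5 gates, 52 (57.8%, against 1.11% of all genes) were called lower and 0 higher in G3SEKO, with a median of -0.49, while the 40 biogenesis factors had a median of -0.41, all genes one of -0.43, and 0 calls among the biogenesis factors. The median SE was 0.097 for the ribosomal protein genes and 0.40 for the biogenesis factors, so the counts of calls compare lists measured with unequal precision. In 49 of the 90 (54.4%) G3SEKO lay below WT in all 8 pairs of sums, against 2.65% of all genes. Without the 14 remaining G3SEKO cells of experiment 1, which carry myeloid markers, 64 were called lower and 0 higher, and 57 (63.3%) lay below WT in all 7 other pairs against 3.7% of all genes.

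Cells left out for low Id2 had similar sums of the 40 genes in both genotypes. In experiment 1 they were 4132 CPM in 56 WT cells and 4148 CPM in 20 G3SEKO cells. In experiment 2 they were 4259 CPM in 945 WT cells and 4189 CPM in 288 G3SEKO cells. Among WT Mki67+ cells, those with Il1rl1 at the limit had 5030 CPM (6 cells) and those below it 4867 CPM (6 cells) in experiment 1, and 3618 CPM (33 cells) and 4226 CPM (45 cells) in experiment 2.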
